A study of Rattus with 6 samples.

Results

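Interferon-stimulated genes were followed in 6 RNA sequencing libraries of mesenchymal stem cells (BMSC) grown from rat bone marrow, an adherent stromal population. The set is a list of 41 names of genes known to be induced by interferon, taken by symbol from the deposited table, and 38 of them had a row among the 16690 genes of that table. Rigi, Ddx58 and Zbp1 had no row under these names. Of the 38, 26 reached at least 1 FPKM (fragments scaled to gene length and library depth) in at least 3 libraries and were tested, and 12 did not. The libraries come from cultured cells of Sprague Dawley rats, tagged wild-type throughout, 3 from a rat model of kidney disease that has become chronic (CKD) and 3 from healthy rats (control). The labels used here do not say how the disease was induced, how old the animals were, or whether each library is its own animal, so p-values measure the spread between libraries, which may be technical. The design text names RNA of the cells and the extract protocol names exosome RNA, and which was sequenced could not be settled.

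Type I and type II interferons are secreted signals of infection and inflammation. Type I interferons bind the receptor pair Ifnar1 and Ifnar2, which activates the kinases Jak1 and Tyk2, and a complex that holds Stat2 and Irf9 then switches on a large set of target genes. Products of these genes block viral entry, sense or degrade foreign nucleic acid, conjugate the ubiquitin-like protein Isg15, or feed back on the pathway. Stromal cells of the marrow and macrophages both respond to interferon, and some members are also expressed at a steady level without it.

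Libraries of 1 group were not always alike. Across tested genes, Pearson r was 0.996 between CKD replicates 2 and 3 and 0.998 between control replicates 2 and 3, while CKD replicate 1 was nearer to control replicate 1 (r = 0.967) than to CKD replicate 2 (r = 0.935). These values are across genes, which are no independent replicates. The disease model tag goes against title and library name in CKD replicate 1 and control replicate 2. All 9 stromal markers, among them Col1a1 and Thy1, were present in every library. All 20 markers of haematopoietic cells and macrophages were highest in CKD replicates 2 and 3. Their summed level was 77.5, 1315 and 949 FPKM in CKD replicates 1, 2 and 3 and 174, 15.1 and 11.4 FPKM in control replicates 1, 2 and 3, and 1 and 3 of these markers were at 0 in control replicates 2 and 3. The labels describe the cells as CD29+, CD90+, CD34- and CD45-, but Ptprc, the gene of CD45, stood at 0.783, 15.5 and 11.4 FPKM in CKD and 1.33, 0.0140 and 0.0204 FPKM in control. Of 6 lymphocyte markers only Cd79a had a row, with at most 0.0637 FPKM, and the endothelial list had 5 rows and reached at most 2.31 FPKM. In bulk libraries fewer cells of a type and less RNA per cell cannot be told apart.

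No interferon-stimulated gene passed the test between CKD and control. Of the 26 tested members, 0 were called higher and 0 lower at an adjusted p of 0.05 (limma on log2(FPKM + 1), Benjamini-Hochberg over 10638 genes), and Ifi44 and Isg15 were the 2 members under 0.05 before adjustment. Over all tested genes the share called was 2.07%, with 1.33% higher and 0.733% lower, and 22.1% had an unadjusted p under 0.05. That is 142 higher and 78 lower genes, against 126 and 104 once size factors scaled the libraries and 64 and 61 in limma-voom. Limma-voom on fragment counts recovered from the table also called 0 members. The log2 fold change was positive in 14 members and negative in 12, with a median of 0.051, beside a median of 0.053 and a positive sign in 59.4% over all tested genes. The members' median was -0.023 with libraries scaled by size factors. The log2 fold change of 18 of the 26 was under 0.25 in size. The largest value was 1.90 for Ifitm1, which also had the largest standard error (1.00), and the lowest was -0.36 for Ifi27. Adjusted p-values ran from 0.126 for Ifi44 to 0.976 for Usp18 (limma). A p that misses the threshold does not show that the groups were alike, and the plot of fold changes shows how wide several of the errors were.

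**Figure D1:**
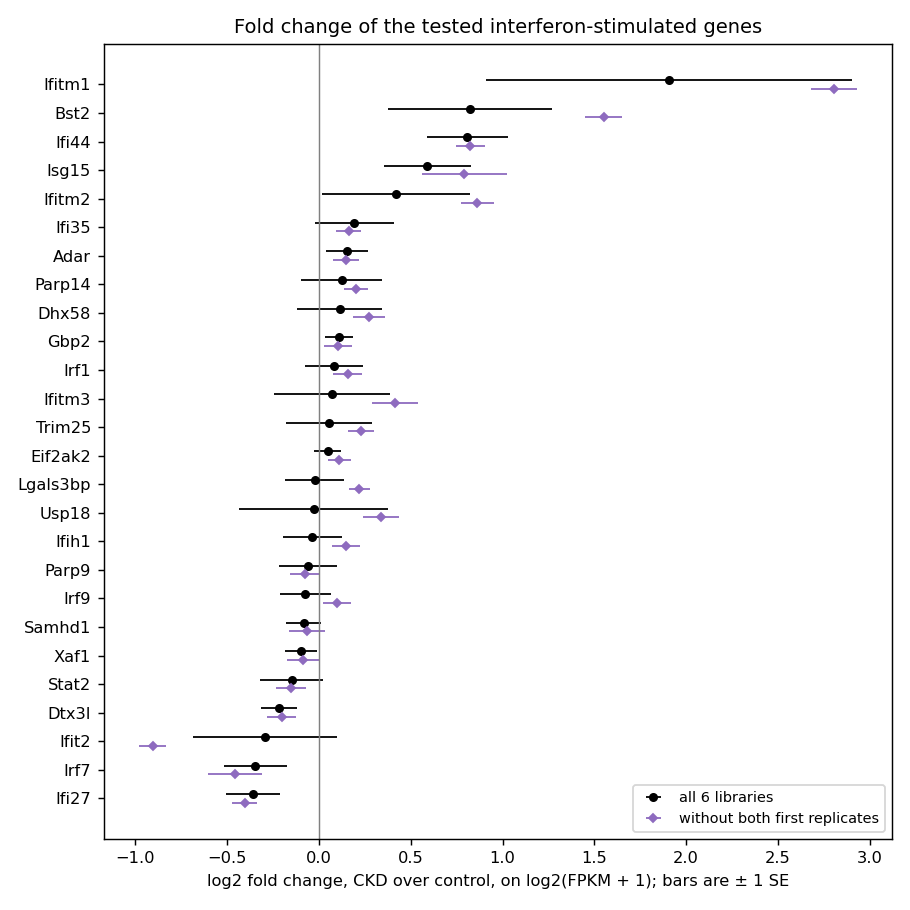
Log2 fold change of the 26 tested members, CKD over control, on log2(FPKM + 1), with bars of 1 SE, from all 6 libraries (black circles) and without both first replicates (purple diamonds, 2 libraries a group). Ifitm1 stood at 1.90 with an SE of 1.00 over all libraries and at 2.80 without the first replicates, while Eif2ak2 had the smallest SE (0.07).

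Levels spanned a wide range. Over all 6 libraries 7 members averaged at least 10 FPKM, 19 lay between 1 and 10 FPKM, and 12 were under 1 FPKM in every library. The highest mean was that of Ifitm3 at 426 FPKM, followed by Ifitm1 (129 FPKM), Ifi27 (122 FPKM), Lgals3bp (74.4 FPKM) and Ifitm2 (74.2 FPKM). The 12 low members were Cmpk2, Ddx60, Herc6, Ifit1, Ifit3, Isg20, Mx1, Mx2, Oas1a, Oas2, Oasl and Rsad2, among them the oligoadenylate synthetase genes and their relative Oasl and 7 of the 14 antiviral effectors. Of these 12, 6 had no fragment in at least 1 library. The 3 Ifitm genes alone made up 57.4%, 78.4% and 73.7% of the summed FPKM of all 38 members in CKD and 62.4%, 62.2% and 60.2% in control, in replicate order.

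**Figure D2:**
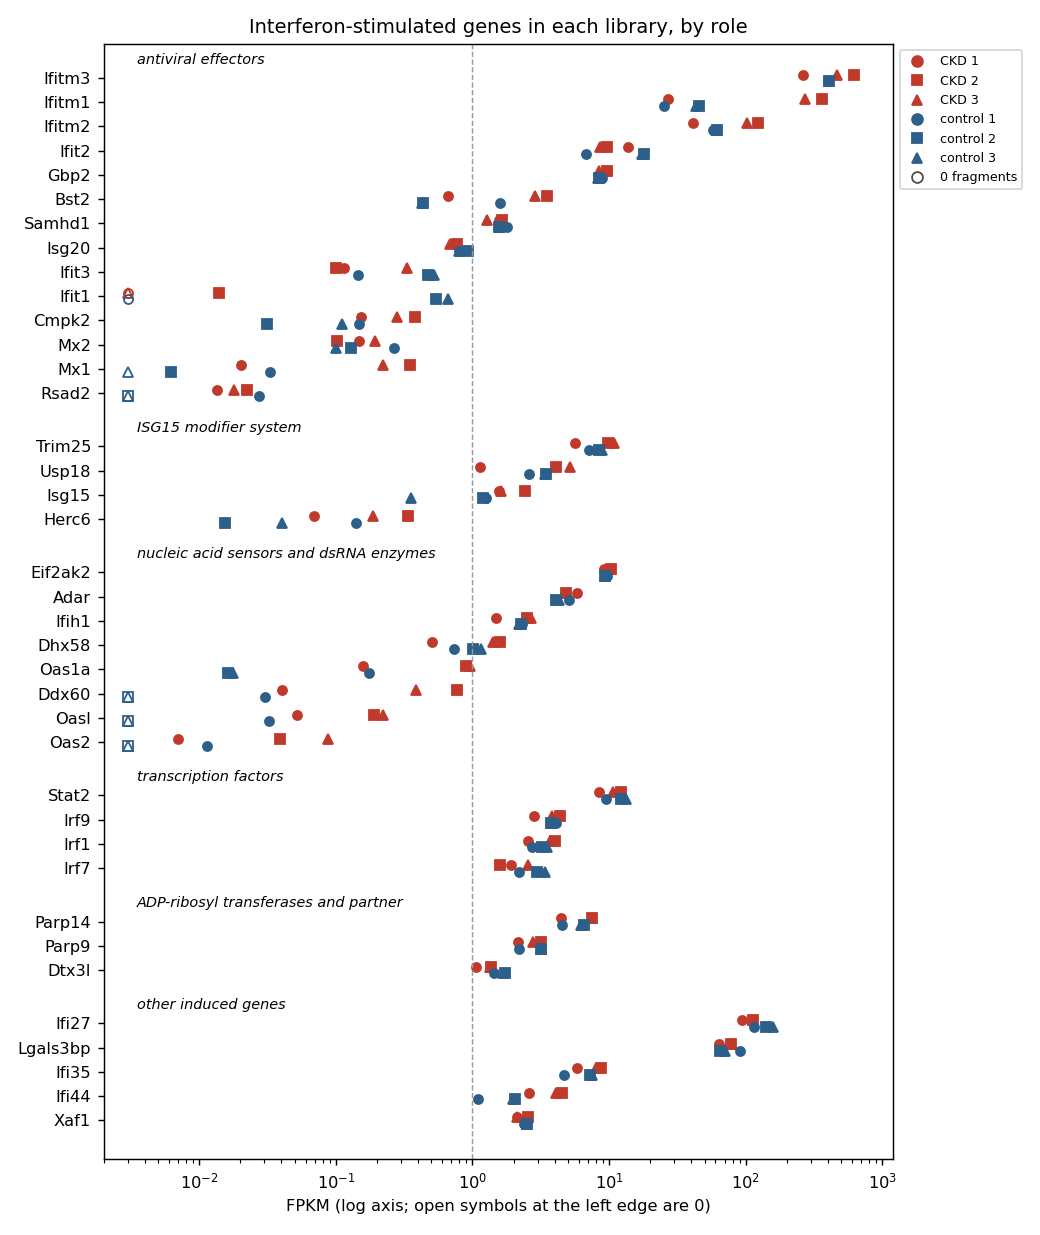
FPKM of the 38 members in each library on a log axis, grouped by role, with CKD in red and control in blue and a symbol for each replicate number, open symbols for 0 fragments and a dashed line at 1 FPKM. Ifitm3 lay highest, at a mean of 426 FPKM, and Rsad2 lowest, at 0.0136 FPKM.

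Among the antiviral effectors, the Ifitm proteins sit in membranes and hinder the entry of enveloped viruses. Ifitm1 (NCBI Gene 293618) stood at 27.0, 362 and 272 FPKM in CKD, against 25.1, 45.2 and 42.9 FPKM in control, in the order of replicates 1, 2 and 3 that is kept from here on. CKD replicates 2 and 3 were far above every other library, CKD replicate 1 lay within the range of the controls, and the groups overlapped. It averaged 220 ± 173 FPKM in CKD, against 37.7 ± 11.0 FPKM in control (SD, n = 3 per group, log2 fold change 1.90 with an SE of 1.00, limma adjusted p = 0.320). Ifitm2 (NCBI Gene 114709) stood at 41.2, 123 and 101 FPKM in CKD and 57.3, 61.9 and 60.3 FPKM in control, so that CKD held both the lowest library, replicate 1, and the highest ones (limma adjusted p = 0.577). Ifitm3 (NCBI Gene 361673), the most abundant member, stood at 260, 623 and 466 FPKM in CKD and 398, 405 and 404 FPKM in control. Its controls lay within a few FPKM of each other while the CKD libraries fell on either side of them (SD 182 in CKD, against 3.88 in control; log2 fold change 0.07 with an SE of 0.32, limma adjusted p = 0.917). The Ifitm genes are close relatives, and how the authors treated fragments that match more than 1 of them is not given in the sources used here. The same holds for Mx1 and Mx2, for Oas1a and for Ifi27, which have near copies.

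The Ifit proteins bind foreign RNA and are among the genes most strongly induced by type I interferon. Ifit2 (NCBI Gene 294091) was the 1 tested gene of the family, at 13.8, 9.57 and 8.50 FPKM in CKD and 6.77, 18.1 and 17.4 FPKM in control. Control replicates 2 and 3 were highest and control replicate 1 lowest, so that all 3 CKD libraries lay inside the control range (log2 fold change -0.29 with an SE of 0.39, limma adjusted p = 0.701). Ifit1 (NCBI Gene 56824) was all but limited to a pair of libraries. It had 0, 1 and 0 fragments in CKD, against 0, 47 and 52 fragments in control, or 0.545 and 0.657 FPKM in the 2 controls with reads. For this gene 3 fragments were worth 0.0348 to 0.0422 FPKM, so the libraries at 0 allow a level up to about that value from counting error alone. Ifit3 (NCBI Gene 309526) stood at 0.114, 0.0996 and 0.330 FPKM in CKD and 0.146, 0.469 and 0.524 FPKM in control, again with control replicates 2 and 3 on top. Ifit1 and Ifit3 did not reach the filter, and a fit without it gave limma adjusted p-values of 0.280 and 0.405.

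The dynamin-like GTPase gene Mx1 (NCBI Gene 24575) was highest in CKD replicates 2 and 3, unlike Ifit1. It had 3, 46 and 37 fragments in CKD and 6, 1 and 0 fragments in control, or 0.0202, 0.347 and 0.223 FPKM in CKD, against 0.0332, 0.00622 and 0 FPKM in control. Its relative Mx2 was at 0.102 to 0.192 FPKM in CKD and 0.0998 to 0.265 FPKM in control. Bst2 (NCBI Gene 378947), which encodes the virion tether tetherin, stood at 0.666, 3.54 and 2.87 FPKM in CKD and 1.59, 0.436 and 0.426 FPKM in control. Its groups overlapped through the first replicates, with control replicate 1 above CKD replicate 1 (log2 fold change 0.82 with an SE of 0.45, limma adjusted p = 0.336). In 5 of the 38 members, Bst2, Mx1, Oas1a, Oas2 and Herc6, the libraries followed 1 order. CKD replicates 2 and 3 were on top, then control replicate 1, CKD replicate 1 and the other controls. The summed haematopoietic markers given above had the same order, but these members were named for having it. How many of all rows follow it was not counted. The part of haematopoietic cells in these levels, and in those of the Ifitm genes, was not tested.

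Rsad2 (NCBI Gene 65190), which encodes viperin, rested on 2, 3 and 3 fragments in CKD and 5, 0 and 0 fragments in control, so no difference was detectable at this depth. Cmpk2, a mitochondrial nucleotide kinase, had 18, 40 and 37 fragments in CKD and 21, 4 and 13 fragments in control. Its groups did not overlap in FPKM, but only by 0.153 FPKM in CKD replicate 1 to 0.147 FPKM in control replicate 1. Samhd1, which depletes the nucleotides that viruses need, averaged 1.50 ± 0.189 FPKM in CKD, against 1.65 ± 0.128 FPKM in control (SD, n = 3 per group, limma adjusted p = 0.638). Gbp2, a guanylate-binding GTPase, was among the steadiest members, at 9.25 ± 0.674 FPKM in CKD, against 8.50 ± 0.284 FPKM in control (SD, n = 3 per group, limma adjusted p = 0.451). Isg20, an exonuclease, stood at 0.689 to 0.777 FPKM in CKD and 0.791 to 0.927 FPKM in control, just under the filter.

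Isg15 is the ubiquitin-like modifier that interferon induces, and Usp18 removes it from proteins and damps signalling at the receptor. Isg15 (NCBI Gene 298693) stood at 1.56, 2.41 and 1.61 FPKM in CKD and 1.25, 1.19 and 0.355 FPKM in control. All 3 CKD libraries were above all 3 controls, with 40, 55 and 46 fragments in CKD and 39, 33 and 9 fragments in control behind the values (log2 fold change 0.59 with an SE of 0.24, limma adjusted p = 0.225). Without control replicate 3, the library with 9 fragments, the log2 fold change was 0.35 (limma adjusted p = 0.462). Usp18 (NCBI Gene 312688) had 1.13, 4.12 and 5.14 FPKM in CKD and 2.61, 3.47 and 3.41 FPKM in control. Here CKD held both the lowest library, replicate 1, and the highest ones, and the means of 3.46 FPKM in CKD and 3.16 FPKM in control differed by less than the spread (limma adjusted p = 0.976). Trim25, a ubiquitin ligase that acts on RIG-I, had the same shape, at 5.61, 9.85 and 10.8 FPKM in CKD and 7.13, 8.43 and 8.89 FPKM in control (limma adjusted p = 0.916). Herc6, known in mouse as a ligase for Isg15, was at 0.0698 to 0.339 FPKM in CKD and 0.0154 to 0.139 FPKM in control.

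Of the 8 sensors and enzymes of double-stranded RNA, 4 were tested and 4 were under 1 FPKM in every library. Eif2ak2 (NCBI Gene 54287), which encodes the kinase PKR that halts translation, stood at 9.10, 10.4 and 9.93 FPKM in CKD and 9.66, 9.25 and 9.40 FPKM in control, and had the smallest standard error of the tested members (log2 fold change 0.05 with an SE of 0.07, limma adjusted p = 0.741). Adar, which edits double-stranded RNA, averaged 5.10 ± 0.640 FPKM in CKD, against 4.49 ± 0.544 FPKM in control (SD, n = 3 per group, limma adjusted p = 0.476). Ifih1, which encodes the sensor MDA5, was at 1.49, 2.50 and 2.66 FPKM in CKD and 2.29, 2.27 and 2.20 FPKM in control (limma adjusted p = 0.918). Dhx58, which encodes the related helicase LGP2, was at 0.502, 1.60 and 1.41 FPKM in CKD and 0.734, 1.00 and 1.15 FPKM in control (limma adjusted p = 0.812). In Ifih1 and Dhx58 CKD replicate 1 was the lowest library of all and CKD replicates 2 and 3 the highest. RIG-I has a row under the symbol Rig1 (NCBI Gene 297989), which the rule did not take and which was looked up after the values had been seen. It averaged 4.13 ± 0.688 FPKM in CKD, against 4.30 ± 0.289 FPKM in control (SD, n = 3 per group, limma adjusted p = 0.826).

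The oligoadenylate synthetases make the messenger that activates RNase L. Oas1a (NCBI Gene 192281) stood at 0.159, 0.891 and 0.965 FPKM in CKD and 0.174, 0.0163 and 0.0178 FPKM in control. CKD replicates 2 and 3 carried 45 and 61 fragments, against 1 each in control replicates 2 and 3, while the first replicates had 9 in CKD and 12 in control. Oasl had 4, 13 and 19 fragments in CKD and 3, 0 and 0 in control, and Oas2 had 1, 5 and 14 in CKD and 2, 0 and 0 in control. The helicase gene Ddx60 (NCBI Gene 100360801) had 11, 187 and 117 fragments in CKD, or 0.0405, 0.771 and 0.386 FPKM, and 10, 0 and 0 fragments in control, or 0.0303, 0 and 0 FPKM. Oas1a, Oas2, Oasl, Ddx60 and Mx1, set together after their values were seen, held 28, 296 and 248 fragments in the 3 CKD libraries and 33, 2 and 1 in the 3 controls, in replicate order. The first replicates of both groups thus had nearly the same number. The contrast between the other 4 libraries follows in part from this choice of genes, and its cause was not tested. Without a filter on low values limma called none of the 5, with adjusted p-values of 0.228 for Oas1a, 0.370 for Oas2, 0.197 for Oasl, 0.278 for Ddx60 and 0.283 for Mx1.

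**Figure D3:**
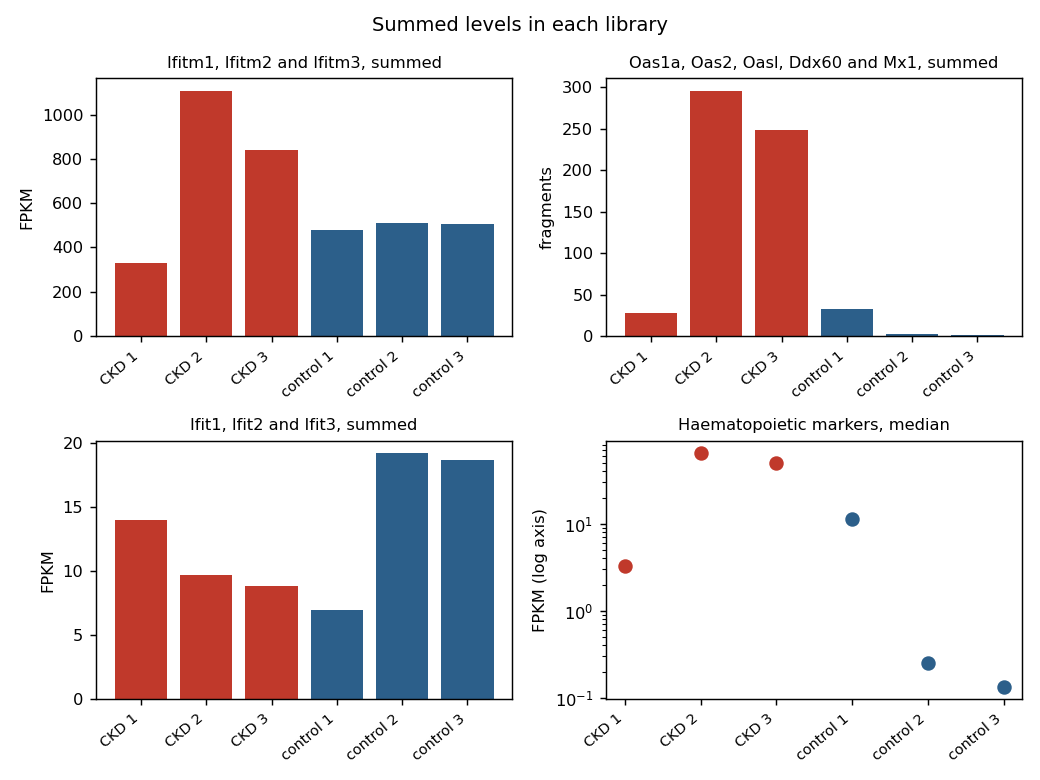
Level in each of the 6 libraries, with CKD in red and control in blue, of the summed FPKM of the Ifitm genes, the summed fragments of Oas1a, Oas2, Oasl, Ddx60 and Mx1, the summed FPKM of the Ifit genes, and the median FPKM of 20 haematopoietic markers on a log axis. CKD replicates 2 and 3 stood highest in all panels but that of the Ifit genes. There control replicates 2 and 3 did, at 19.2 and 18.6 FPKM. Oas1a, Oas2, Oasl, Ddx60 and Mx1 were set together after their values were seen.

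The transcription factors of the list were above 1 FPKM in every library. Stat2 (NCBI Gene 288774), a transducer of type I interferon signals, was at 8.49, 12.2 and 10.7 FPKM in CKD and 9.47, 12.3 and 13.4 FPKM in control (log2 fold change -0.15 with an SE of 0.17, limma adjusted p = 0.651). Irf9 (NCBI Gene 305896), the DNA-binding part of the same complex, was at 2.83, 4.35 and 3.83 FPKM in CKD and 4.11, 3.72 and 3.78 FPKM in control (limma adjusted p = 0.790). In both genes CKD replicate 1 was the lowest library and the groups overlapped. Irf7 (NCBI Gene 293624), the main inducer of interferon alpha genes, was at 1.92, 1.60 and 2.55 FPKM in CKD and 2.19, 2.96 and 3.40 FPKM in control, with an overlap of 1 library on each side (log2 fold change -0.35 with an SE of 0.17, limma adjusted p = 0.296). Irf1, which also answers to interferon gamma, averaged 3.44 ± 0.777 FPKM in CKD, against 3.17 ± 0.400 FPKM in control (SD, n = 3 per group, limma adjusted p = 0.800).

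Parp9 and Dtx3l form a complex that modifies proteins by ADP-ribose and ubiquitin, and Parp14 is a related transferase. Dtx3l stood at 1.06, 1.36 and 1.34 FPKM in CKD and 1.44, 1.74 and 1.68 FPKM in control, without overlap (log2 fold change -0.22 with an SE of 0.10, limma adjusted p = 0.267). Its partner Parp9 averaged 2.69 ± 0.515 FPKM in CKD, against 2.85 ± 0.564 FPKM in control, and Parp14 averaged 6.47 ± 1.77 FPKM in CKD, against 5.77 ± 1.07 FPKM in control (SD, n = 3 per group, limma adjusted p = 0.854 and 0.781). In both genes the first replicates of the 2 groups were the lowest libraries.

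Ifi44 (NCBI Gene 310969), an interferon-induced protein of the cytoplasm, had the lowest adjusted p of the list. It stood at 2.61, 4.55 and 4.10 FPKM in CKD and 1.10, 2.04 and 1.96 FPKM in control. All CKD libraries lay above all controls, and CKD replicate 1 lay above control replicate 1 in the same way as the other libraries did above theirs. It averaged 3.75 ± 1.02 FPKM in CKD, against 1.70 ± 0.521 FPKM in control (SD, n = 3 per group, log2 fold change 0.81 with an SE of 0.22, limma adjusted p = 0.126). Ifi27 (NCBI Gene 170512), a mitochondrial protein and the most abundant member outside the Ifitm family, stood at 94.3, 112 and 112 FPKM in CKD and 114, 140 and 158 FPKM in control. The highest CKD library fell just short of the lowest control (log2 fold change -0.36 with an SE of 0.15, limma adjusted p = 0.226). Lgals3bp (NCBI Gene 245955), a secreted glycoprotein that binds galectin, was at 63.2, 78.4 and 79.3 FPKM in CKD and 90.6, 65.2 and 69.9 FPKM in control (limma adjusted p = 0.945). Ifi35 averaged 7.53 ± 1.56 FPKM in CKD, against 6.50 ± 1.59 FPKM in control, and Xaf1, an antagonist of the apoptosis inhibitor XIAP, averaged 2.25 ± 0.248 FPKM in CKD, against 2.47 ± 0.0695 FPKM in control (SD, n = 3 per group, limma adjusted p = 0.635 and 0.539).

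Counted over all 38 members, groups did not overlap in 5 higher ones (Cmpk2, Ddx60, Ifi44, Isg15 and Oasl; 13.2%) and 3 lower ones (Dtx3l, Ifi27 and Isg20; 7.89%). Over all 16690 rows the shares were 16.9% higher and 8.59% lower, so the members lay near the background. A more frequent pattern was that of CKD replicates 2 and 3 both above the other 4 libraries, which held for 21 members (55.3%), beside 28.7% of all rows. Control replicates 2 and 3 were both on top in 7 members, namely Dtx3l, Ifi27, Ifit1, Ifit2, Ifit3, Irf7 and Stat2 (18.4%), beside 17.1% of all rows. Between the first replicates, 10 members were higher and 27 lower in CKD than in control. Between replicates 2 and 3, 27 members were higher in CKD on average, and the 2 contrasts had opposite directions in 19 of the 38 members. These directions were not counted over all rows, so they cannot be read as a trait of the members.

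The rest of the pathway was taken from a list of 40 genes of interferon production and signalling, of which 33 had a row and 27 were tested. Limma called 0 of them higher and 0 lower, limma-voom called 0, and 4 were under 0.05 before adjustment. Of the ligands, Ifne alone had a row, with at most 12 fragments in any library. The 7 other ligand names had none, so their level could not be read. The receptor genes were expressed throughout. Ifnar1 (NCBI Gene 288264) stood at 10.1, 20.3 and 18.1 FPKM in CKD and 11.6, 13.5 and 13.6 FPKM in control (limma adjusted p = 0.591). Ifnar2 (NCBI Gene 686326), its partner, stood at 5.09, 8.78 and 6.49 FPKM in CKD and 4.75, 4.15 and 4.24 FPKM in control, without overlap (log2 fold change 0.51 with an SE of 0.18, limma adjusted p = 0.185). The receptor-bound kinase genes Jak1 (60.5 ± 9.07 FPKM in CKD, against 63.4 ± 8.29 FPKM in control) and Tyk2 (3.10 ± 0.428 FPKM in CKD, against 3.20 ± 0.423 FPKM in control) differed by less than their spread (SD, n = 3 per group, limma adjusted p = 0.824 and 0.895).

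Upstream of interferon, Tlr3 (NCBI Gene 364594), the endosomal sensor of double-stranded RNA, had tight values without overlap, at 5.67, 5.50 and 5.45 FPKM in CKD and 4.91, 4.41 and 4.18 FPKM in control (log2 fold change 0.25 with an SE of 0.08, limma adjusted p = 0.148). Irf3, the factor that induces interferon beta, averaged 11.3 ± 1.55 FPKM in CKD, against 10.2 ± 1.37 FPKM in control (SD, n = 3 per group, limma adjusted p = 0.588). Tlr7, a sensor of single-stranded RNA known from macrophages and other leukocytes, stood at 0.528, 6.40 and 4.52 FPKM in CKD and 0.888, 0.118 and 0.164 FPKM in control, in the order of the haematopoietic markers, and was below the filter. The same order held for Ptpn6, a phosphatase gene of haematopoietic cells, at 0.898, 13.6 and 9.36 FPKM in CKD and 1.82, 0.717 and 0.648 FPKM in control (limma adjusted p = 0.268). The share of all rows with this order was not counted. The feedback inhibitor Socs1 was under 1 FPKM throughout, at 0.0653 to 0.234 FPKM in CKD and 0.0658 to 0.233 FPKM in control, while its relative Socs3 stood at 11.8, 38.2 and 36.4 FPKM in CKD and 28.0, 14.5 and 15.2 FPKM in control (limma adjusted p = 0.632).

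**Figure D4:**
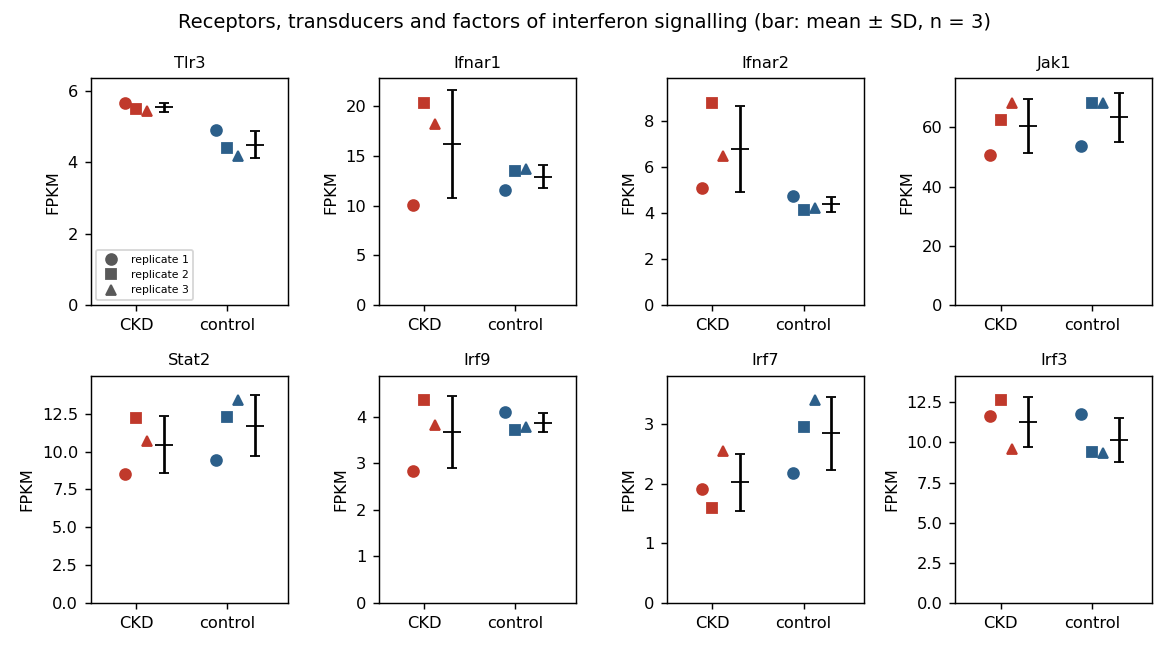
FPKM of 8 genes of interferon signalling in CKD (red, left) and control (blue, right), with a symbol for each replicate number and the mean ± SD of 3 libraries in black. Tlr3 lay between 5.45 and 5.67 FPKM in CKD, above all 3 controls, and Ifnar2 did not overlap either, while the groups overlap in the other 6 panels.

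The calls depended on which libraries entered the fit. Without CKD replicate 1, Ifi44, Ifitm1 and Ifitm2 were higher in CKD (log2 fold change 1.00, 3.07 and 0.89; limma adjusted p = 0.0342, 0.00951 and 0.0135), while over all genes 10.7% were called higher and 4.35% lower, or 1139 and 463 genes. Without control replicate 1, 0 members were called, beside 733 higher and 546 lower genes, and without any 1 of the other 4 libraries at most 3 genes were higher and 7 lower. Without both libraries with conflicting tags, CKD replicate 1 and control replicate 2, Ifitm1 was called (log2 fold change 3.22, limma adjusted p = 0.0415). Over all genes, 237 were called higher and 61 lower in this fit, which keeps the much alike CKD replicates 2 and 3. Without both first replicates, 11 members were higher and 3 lower in CKD. The higher ones included Ifitm1 (log2 fold change 2.80), Bst2 (1.55), Ifi44 (0.82) and Isg15 (0.79), and the lower ones were Ifit2 (-0.91), Irf7 (-0.46) and Ifi27 (-0.40), with limma adjusted p-values from 4.93e-06 for Ifitm1 to 0.0347 for Irf7 among these 7. In that fit, which sets a pair of libraries against a pair, 34.7% of all tested genes were called higher and 20.3% lower, and each pair is the one whose members were most alike.

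The authors' deposited table gives a q-value under 0.05 and a higher level in CKD to 3 members, namely Ddx60 (q = 0.0157), Ifitm1 (q = 0.0165) and Ifi44 (q = 0.0265). In the authors' deposited table Ifit1 was lower (q = 0.0371), and over all its genes 6.72% were higher and 4.60% lower at that level. Of the pathway list, Tlr7 and Ptpn6 were higher in the authors' deposited table (q = 0.0160 and 0.0152). Of these genes, Ddx60 and Ifit1 had few or no fragments in the group with the lower level, as given above.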

How the data were processed

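RNA was measured by poly-A selected, stranded sequencing, per the labels' protocols. The submitters' processing notes name HISAT2 2.1.0, HTSeq 0.11.2 and build mRatBN7.2, beside DESeq2 1.22.2, DESeq 1.34.1, SAMtools 1.9 and FastQC 0.11.9, without order or settings. The authors deposited FPKM per gene and library, mean normalized counts, and for CKD over control the ratio, its log2 value and the p-value with its q-value, per the file headers, with decimal commas. Genes below a mean normalized count of 1.03 were not analysed here.

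Fragment counts were recovered from FPKM and group means. All 100140 values (100%) came out whole within 0.01, with depths of 34404037 to 46892613 fragments. At the median gene, 3 fragments equal 0.0198 to 0.0270 FPKM by library. Limits at 0 cover counting error only.

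The main test, two-sided, was limma 3.58.1 with a trend, run in R 4.3.3 on values of log2(FPKM + 1), for genes that reached 1 FPKM in 3 or more libraries. Fold changes on this scale understate low genes. The fit was also run on simulated independent libraries with a common spread and no outlying replicate. That run does not cover the uneven replicates seen here. Limma-voom on recovered counts with TMM scaling was an alternative and called 64 higher and 61 lower genes. Libraries were grouped by column code and library name. Each replicate number follows the column code, and the title of CKD replicate 3 carries another number. Members and lists were chosen with earlier results of these data known. Every member with a row is named, with values per library for those of a fixed rule. CKD replicates 1 and 3 have library names with 1 common start, as do control replicates 1 and 2, and whether they are independent is unknown. No sequences or coordinates are given, since the reference table is of another assembly. Values of the pathway list are given for a part of its genes, and the others are not reported here.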

Additional observations from a re-analysis of the deposited data

How the results depend on the processing

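The number of called members was 0 higher and 0 lower with a pseudocount of 0.1, without a filter, with a filter on the mean, with libraries scaled by size factors, in limma-voom, with the replicate block, with libraries of a shared name start averaged and with the disease model tag as group. The count was 1 higher without both libraries with conflicting tags, and 11 higher and 3 lower without both first replicates, an alternative chosen after seeing the data, as was the averaging. It ran from 0 to 3 higher, and was 0 lower, without each library in turn. For the pathway list it was 1 lower with scaled libraries, 14 higher and 4 lower without both first replicates, and from 0 to 8 higher and 0 to 1 lower without each library. Over all genes, 142 higher and 78 lower calls became 81 higher without a filter, 55 and 44 with the mean filter, 64 higher in limma-voom, 237 higher without the libraries with conflicting tags, 3689 and 2162 without both first replicates, and 0 and 0 by tag. Without each library they ran from 1 to 1139 higher and from 5 to 546 lower. The median log2 fold change of the members was 0.22 with groups by tag, and in all other fits within its spread of 0.17 between libraries of 0.051. With the replicate number as a block, 60 higher and 28 lower genes were called. Deviations of same-numbered libraries correlated weakly (0.036, -0.031 and 0.109 for replicates 1, 2 and 3). CKD replicates 1 and 3 correlated best with the control of their own number, and CKD replicate 2 did not. With 3 libraries per group these values cannot settle whether the numbers pair animals.

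Some log2 fold changes that were not called with all 6 libraries had the other sign in other fits, among which Usp18 and Lgals3bp were called higher without both first replicates. With scaled libraries the log2 fold change was -0.010 for Ifitm3, -0.020 for Trim25 and -0.026 for Eif2ak2, and in limma-voom -0.0029 for Trim25 and -0.016 for Eif2ak2. Without the libraries with conflicting tags it was 0.49 for Usp18, 0.14 for Ifih1, 0.041 for Irf9, 0.018 for Stat2, 0.12 for Parp9, 0.11 for Jak1 and 0.072 for Tyk2. With the tag as group it was -0.0075 for Gbp2, 0.68 for Usp18, 0.23 for Ifih1, -0.13 for Adar, 0.13 for Irf9, 0.17 for Stat2, 0.22 for Parp9, 0.058 for Dtx3l, 0.015 for Ifi27, 0.015 for Xaf1, 0.0055 for Lgals3bp, 0.21 for Jak1, 0.13 for Tyk2 and -0.050 for Irf3. Without both first replicates it was 0.34 for Usp18, 0.15 for Ifih1, 0.098 for Irf9 and 0.22 for Lgals3bp, and with averaged libraries 0.12, 0.019 and 0.018 for Usp18, Ifih1 and Lgals3bp. Without each library in turn it ran from -0.21 to 0.42 for Ifitm3, -0.33 to 0.44 for Usp18, -0.11 to 0.31 for Trim25, -0.14 to 0.14 for Ifih1, -0.037 to 0.36 for Dhx58, -0.018 to 0.23 for Irf1, -0.18 to 0.063 for Irf9, -0.19 to 0.049 for Parp9, -0.014 to 0.34 for Parp14, -0.12 to 0.12 for Lgals3bp, -0.18 to 0.052 for Jak1 and -0.12 to 0.052 for Tyk2. The cause was not tested. Among members under 1 FPKM, Isg20 had 127 to 184 fragments in each library. The others rest on few fragments in some or all libraries, which limits what their values can show.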
